A study of Sus scrofa with 4 samples.

Results

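The genes described here encode the respiratory chain and the ATP synthase, the protein complexes of the inner mitochondrial membrane that carry electrons to oxygen and make ATP. All 13 protein-coding genes of the mitochondrial chromosome were taken. Nuclear genes were taken by name, where the pig symbol began with NDUFA, NDUFB, NDUFC, NDUFS, NDUFV, UQCR, COX4, COX5, COX6, COX7, COX8 or ATP5, or was CYC1, SDHA, SDHB, SDHC or SDHD. The choice used no measured value. It gave 102 of the 25880 genes in the table, 13 mitochondrial and 89 nuclear. Of the nuclear members, 81 were subunits, their paralogues or the ATP synthase inhibitor, and 8 were complex I assembly factors, whose symbols begin with NDUFAF.

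RNA was sequenced from 4 porcine cultures that all descended from the ear skin fibroblasts (N01F) of 1 post-neonatal pig. The starting fibroblasts (n = 1, passage 1) had received no vector. The cells named iNSLCs, which stands for induced neural stem cell-like cells, were 1 culture at passage 1, the dome-shaped colonies that grew in the medium NSM after transfection of the EP-B set of episomal reprogramming vectors. Those named iPSCs, or induced pluripotent stem cells, were 2 clones at passage 3, isolated from such cells once these had been moved to the medium ESM, which held IWP2 (an inhibitor of WNT), TGF-β1 and activin A. Cell state, medium and, for the iPSCs, passage therefore changed together and cannot be told apart. The clones shared a donor, so the p-values below measure the spread between 2 clones of 1 animal.

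Respiratory complexes are built from the products of 2 genomes. The mitochondrial chromosome is transcribed as long precursors, mostly from one strand, that are cut at the transfer RNAs between the genes, whereas each nuclear subunit has its own promoter and its protein is imported. Complex I (NADH dehydrogenase), complex III (cytochrome bc1), complex IV (cytochrome c oxidase) and complex V (ATP synthase) hold subunits from both genomes, and complex II (succinate dehydrogenase) is wholly nuclear. Pluripotent cells are known for a high use of glycolysis, and several complex IV subunits have paralogues that are used in particular tissues.

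Total counts were 62421521 in fibroblasts, 25784594 in iNSLCs, and 21640374 and 41296933 in iPSC clones 1 and 2. Levels are given as CPM, counts set to one common library total, after TMM scaling, which sets the bulk of genes to be equal between libraries. COL1A1 and COL1A2, fibroblast collagen genes, took 8.57% of all counts in fibroblasts, 3.85% in iNSLCs, and 0.0770% and 0.0760% in the clones. TMM lowered every iPSC to fibroblast ratio by 0.57 on the log2 scale relative to scaling by total counts, and every iNSLC to fibroblast ratio by 0.58, while iPSC to iNSLC ratios moved by 0.01. The 5 fibroblast markers summed to 117727 CPM in fibroblasts, 35871 CPM in iNSLCs, and 735 and 728 CPM in the iPSC clones, and none was at 0 in any library. The pluripotency markers summed to 0.367, 376, 843 and 919 CPM in the same order. In iNSLCs most of that sum came from LIN28A (202 CPM) and SOX2 (134 CPM), which is also a neural stem marker. POU5F1 lay at 40.5 CPM in iNSLCs and at 295 and 275 CPM in the clones. NANOG lay at 0.209 CPM in iNSLCs and at 52.4 and 40.9 CPM in the clones. The EP-B vectors carry these factors, and whether reads came from the vectors was not tested. In the library labelled iNSLC, SOX2, MSI1 and NES were high, but PAX6 lay at 14.6 CPM against 21.5 CPM in fibroblasts. In such bulk samples, fewer cells of a type and less RNA per cell cannot be told apart.

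Mitochondrial transcripts made up most of the respiratory chain counts in every library, and their share was lower in iPSCs. The share on the 13 mitochondrial genes was 89.8% in fibroblasts (95% exact interval 89.7 to 89.8), 86.7% in iNSLCs (86.7 to 86.8), 83.8% in iPSC clone 1 (83.8 to 83.9) and 83.1% in iPSC clone 2 (83.1 to 83.2). These intervals cover counting error only. Both clones lay below the other libraries by several times the distance between clones (83.5% ± 0.493, SD, n = 2). The share does not depend on library scaling. A permutation test of 2 against 1 libraries cannot reach 0.05, so no p-value was computed.

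As shares of each library, nuclear members were ordered and mitochondrial members differed little. Mitochondrial members took 4.18% of all counts in fibroblasts, 4.49% in iNSLCs, and 4.47% and 4.41% in the clones. Nuclear members took 0.476%, 0.686%, 0.862% and 0.894%, lowest in fibroblasts and highest in both clones. Mitochondrial counts were 8.78 times the nuclear counts in fibroblasts, 6.54 times in iNSLCs, and 5.18 and 4.93 times in the clones. On the TMM scale, the mitochondrial sum was instead 56391 CPM in fibroblasts, 40385 CPM in iNSLCs and 40295 ± 737 CPM in iPSCs. The nuclear sum was then 6421 CPM, 6178 CPM and 7975 ± 139 CPM. The ratio of the genomes is the same on both scales.

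**Figure D1:**
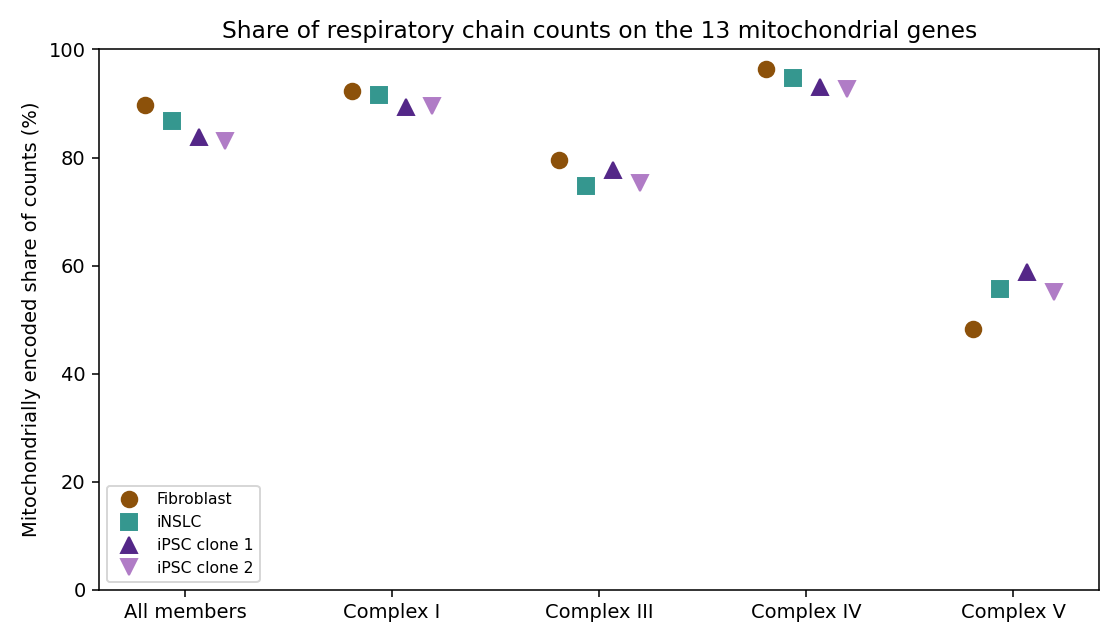
Share of respiratory chain counts (%) on mitochondrially encoded genes, for all 102 members and for each complex that holds subunits of both genomes; each point is 1 library. Over all members the clones lie at 83.8% and 83.1%, below iNSLCs (86.7%) and fibroblasts (89.8%), whereas in complex V fibroblasts are lowest (48.2%).

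The complexes did not share this order. In complex I the mitochondrial share was 92.3% in fibroblasts, 91.6% in iNSLCs and 89.4% ± 0.142 in iPSCs. In complex IV it was 96.3%, 94.7% and 92.9% ± 0.322. Complex V ran the other way, with 48.2% in fibroblasts, 55.6% in iNSLCs, and 58.9% and 55.0% in the clones, so that the clones lay on both sides of iNSLCs but above fibroblasts. In complex III, whose mitochondrial gene is CYTB, the share was 79.5%, 74.7%, 77.7% and 75.2%, and the distance between clones was close to that between groups.

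Per kilobase of exon, mitochondrial genes stood above every nuclear member in each library. The lowest mitochondrial gene lay at 742 CPM per kilobase in fibroblasts, 1211 in iNSLCs, and 1125 and 1247 in the clones. The highest nuclear member, ATP5F1A, lay at 222, 223, 322 and 335 CPM per kilobase. The median mitochondrial gene was 98.7 times the median nuclear member in fibroblasts, 102 times in iNSLCs, and 66.6 and 74.1 times in the clones. The nuclear medians include 6 members with no counts in any library, which raises these ratios. Lengths are the exon totals given for each row, such as 5961 bases for COX7C, and may exceed those of the transcripts present. By this measure fibroblasts and iNSLCs were alike and both clones were lower.

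**Figure D2:**
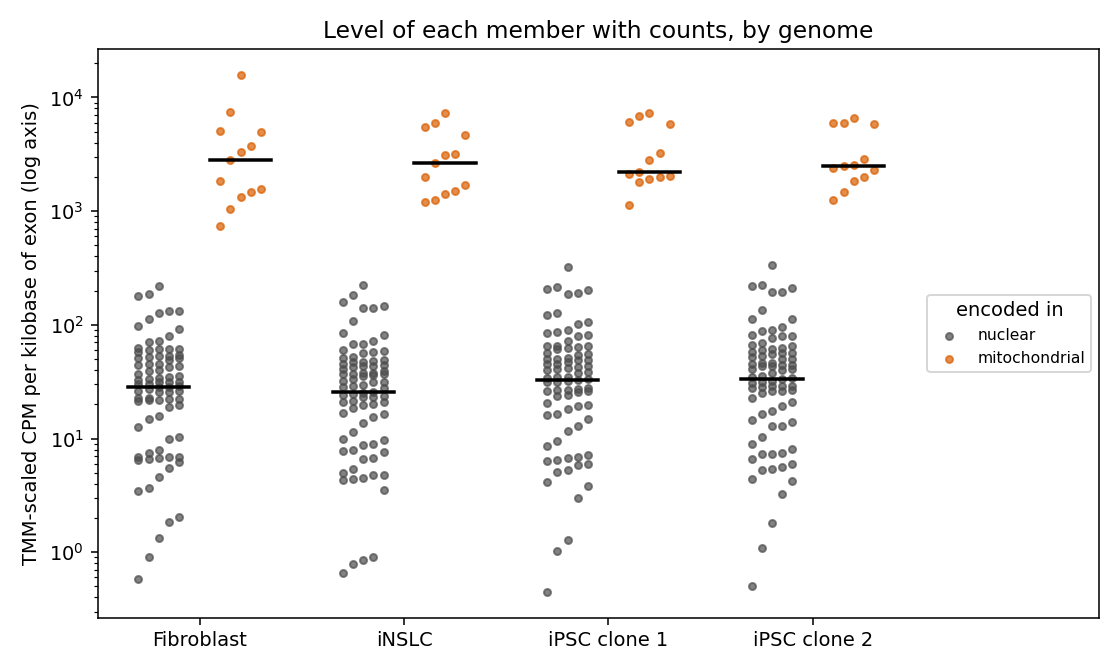
Level of each member in CPM per kilobase of exon (log axis) in each library, with nuclear members in grey and mitochondrial members in orange; black lines are medians, which include 6 nuclear members at 0 counts that a log axis cannot show. The genomes do not overlap in any library.

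A single gene, COX1, weighed most in the mitochondrial counts. COX1 (ENSSSCG00000018075, mitochondrial chromosome, 6511 to 8055, plus strand) encodes the catalytic subunit of complex IV. It held 42.8% of the mitochondrial counts in fibroblasts, 28.1% in iNSLCs, and 22.8% and 22.4% in the clones. Without COX1 the mitochondrial share of respiratory chain counts was 83.4% in fibroblasts, 82.5% in iNSLCs and 79.6% in iPSCs. The order of the groups was the same and the distances were smaller.

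The proportions among the mitochondrial transcripts differed between the groups. Of the 13 genes, 7 took a larger share of the mitochondrial counts in iNSLCs than in fibroblasts and a larger one again in both clones, 3 took a smaller share at both steps, and 3 did neither. The 7 whose share grew were ND1, ND2, COX2, ATP8, ATP6, ND3 and CYTB. Shares are parts of one sum, so the smaller share of COX1 by itself makes those of the other genes larger. A larger share is therefore not read as a higher level. ND1, a core subunit of complex I and the first coding gene of the chromosome (3922 to 4876), went from 2.26% to 4.0%, and to 6.61% and 5.96% in the clones. COX2 (8203 to 8890), the subunit that takes electrons from cytochrome c, went from 4.52% to 9.38%, 12.2% and 11.5%. ATP6 (9120 to 9800), which forms part of the proton path of complex V, went from 4.03% to 7.90%, 11.3% and 10.2%.

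ATP8, which shares 21.1% of its exon bases with ATP6, went from 0.268% to 0.612%, 0.901% and 0.752%. ND2 went from 3.39% to 5.14%, 8.32% and 7.45%, ND3 from 0.637% to 1.21%, 1.86% and 1.73%, and CYTB from 3.0% to 3.56%, 5.69% and 5.25%. The genes whose share grew thus lay both early and late on the chromosome, and CYTB is the last of them (15342 to 16481). On the TMM scale, however, CYTB itself was lower in iNSLCs (1436 CPM) than in fibroblasts (1693 CPM). With total-count scaling it was higher in iNSLCs (1596 against 1256 CPM).

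The shares of COX1, ND5 and ND6 shrank. ND5 (12935 to 14755), a proton-pumping subunit of complex I, held 16.3% in fibroblasts, 14.2% in iNSLCs, and 8.61% and 10.9% in the clones. ND6 (14739 to 15266) is the only protein-coding gene on the minus strand, and it held 4.65%, 4.18%, 2.76% and 3.38%. Counts of ND6 were 0.286 of those of ND5 in fibroblasts, 0.295 in iNSLCs, and 0.321 and 0.310 in the clones, so these neighbours on opposite strands kept nearly one ratio. Per kilobase the 2 rows were also close, with ND5 at 5038 and ND6 at 4966 CPM per kilobase in fibroblasts. Their overlap at the ends covers only 0.934% of ND5 and 3.22% of ND6. The strand setting of the counting was not stated, and nuclear rows covered almost wholly by opposite-strand rows had no counts. Counts in the ND6 row therefore cannot be assigned to the minus strand, and values given for ND6 describe that row. COX3 (10.4%, 11.6%, 11.3% and 11.6%), ND4 (6.90%, 9.02%, 6.76% and 7.89%) and ND4L (0.816%, 1.12%, 0.818% and 0.931%) showed no ordered change in share.

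**Figure D3:**
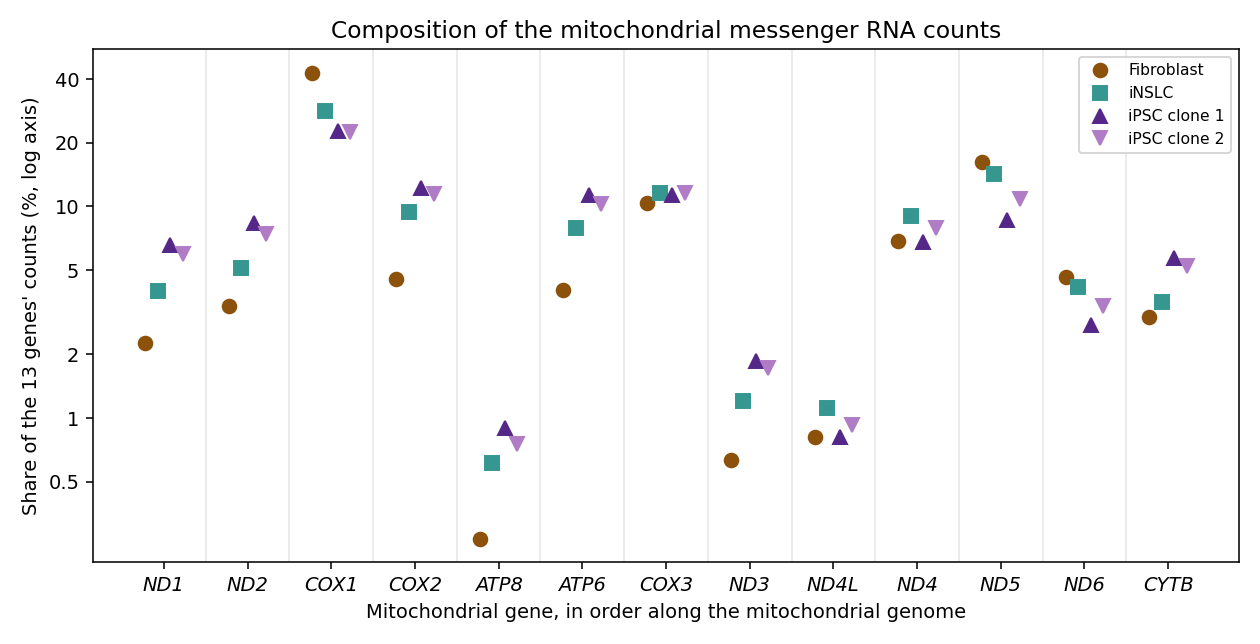
Share of each gene in the summed counts of the 13 mitochondrial protein-coding genes (%, log axis), in order along the chromosome; each point is 1 library. COX1 holds 42.8% in fibroblasts and 22.8% and 22.4% in the clones, while ND1 rises from 2.26% to 6.61% and 5.96%.

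The order of the mitochondrial genes differed too. Per kilobase, COX1 was first in fibroblasts (15630 CPM per kilobase) and iNSLCs (7346), and COX2 was first in both clones (7245 and 6642). There were 18.9 COX1 counts for each ND1 count in fibroblasts, 7.03 in iNSLCs, and 3.45 and 3.77 in the clones. For ND5 and ND1 these ratios were 7.20, 3.55, 1.3 and 1.83. The libraries are bulk, and the fibroblast marker sum given above moved in the same order as these ratios; its part in them was not tested.

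For the tests, edgeR's quasi-likelihood F test was fitted over all 4 libraries and 15739 genes with Benjamini-Hochberg adjustment, and a gene is said to have risen or fallen at an adjusted p below 0.05. In iPSCs against fibroblasts, 57.1% of all tested genes were called, 29.6% higher and 27.5% lower. All 13 mitochondrial genes were tested, of which 6 rose and 5 fell. Their median log2 ratio was 0.38, beside 0.12 over all genes tested. The median was thus above 0 while the summed mitochondrial CPM was lower in iPSCs than in fibroblasts, where COX1 alone gave 24148 CPM of the sum.

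Among the complex I genes of the mitochondrial chromosome, ND1, ND2 and ND3 rose and ND4, ND5 and ND6 fell. ND1 had 1275 CPM in fibroblasts, 1614 CPM in iNSLCs, and 2697 and 2370 CPM in the clones, a 1.99-fold rise from fibroblasts (log2 0.99, SE 0.14, edgeR adjusted p = 0.0040). ND5 had 9173, 5722, 3513 and 4330 CPM (log2 -1.23, SE 0.15, edgeR adjusted p = 0.0030). ND2, ND3 and ND6 changed by 0.73, 1.01 and -1.09 on the log2 scale. ND4 fell by 0.40 on the log2 scale, but with total-count scaling its ratio was 0.17 above 0 and was not called. ND4L had a log2 ratio of -0.39 and an edgeR adjusted p of 0.055.

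In complex IV, COX1 fell from 24148 CPM in fibroblasts to 9310 and 8925 CPM in the clones (log2 -1.41, SE 0.096, edgeR adjusted p = 0.000586), with 11350 CPM in iNSLCs. COX2 rose from 2549 CPM to 4985 and 4570 CPM, with 3788 CPM in iNSLCs. COX1 and COX2 encode partner subunits of one enzyme core, and COX1 counts were 9.47 times COX2 counts in fibroblasts, 3.0 times in iNSLCs, and 1.87 and 1.95 times in the clones. COX3 fell by 0.35 on the log2 scale, but DESeq2 did not call it (adjusted p = 0.068), and with total-count scaling its ratio was 0.22 above 0 and was not called.

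In complex V, both ATP6 (1.91-fold) and ATP8 (2.20-fold) rose. CYTB of complex III had a log2 ratio of 0.38 (SE 0.13, edgeR adjusted p = 0.055). With total-count scaling CYTB was called higher, and 7 mitochondrial genes rose and 3 fell (COX1, ND5 and ND6), beside 44.9% and 16.8% of all genes.

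The nuclear members moved mostly one way. Of the 89, 83 were tested, and the other 6 had no counts in any library. In iPSCs against fibroblasts, 31 rose and 4 fell, which is 37.3% and 4.82% of those tested, beside the 29.6% and 27.5% of all genes. By DESeq2, 22.9% rose and 4.82% fell, beside 25.3% and 23.4% of all genes. The share that fell was below the background by both tools, whereas the share that rose was above it by edgeR and below it by DESeq2. The median log2 ratio was 0.26. With total-count scaling, 67 rose and 3 fell, beside 44.9% and 16.8% of all genes, and the median was 0.83. The distance between the median of nuclear members and that of all genes was 0.14 under either scaling.

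Both clones lay above fibroblasts in 56 nuclear members and below in 17, and in 10 the clones lay on both sides. The ratio of the clone mean to fibroblasts was above 1 in 60 nuclear members and below 1 in 23. Over 15707 tested genes with a ratio, it was above 1 in 8356 and below 1 in 7351. The clones differed from each other by less than 1.3-fold in 81 of 83 nuclear members and in all 13 mitochondrial ones. Neither the places of single clones nor this limit was counted over all genes, so these counts have no background. In complexes II, III and V, no nuclear member was called lower by edgeR under either scaling or by DESeq2, nor did any have a lower ratio at an unadjusted p below 0.05. The largest difference between clones among nuclear members was 1.40-fold, in COX4I2, which had only 16 to 54 counts per library.

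**Figure D4:**
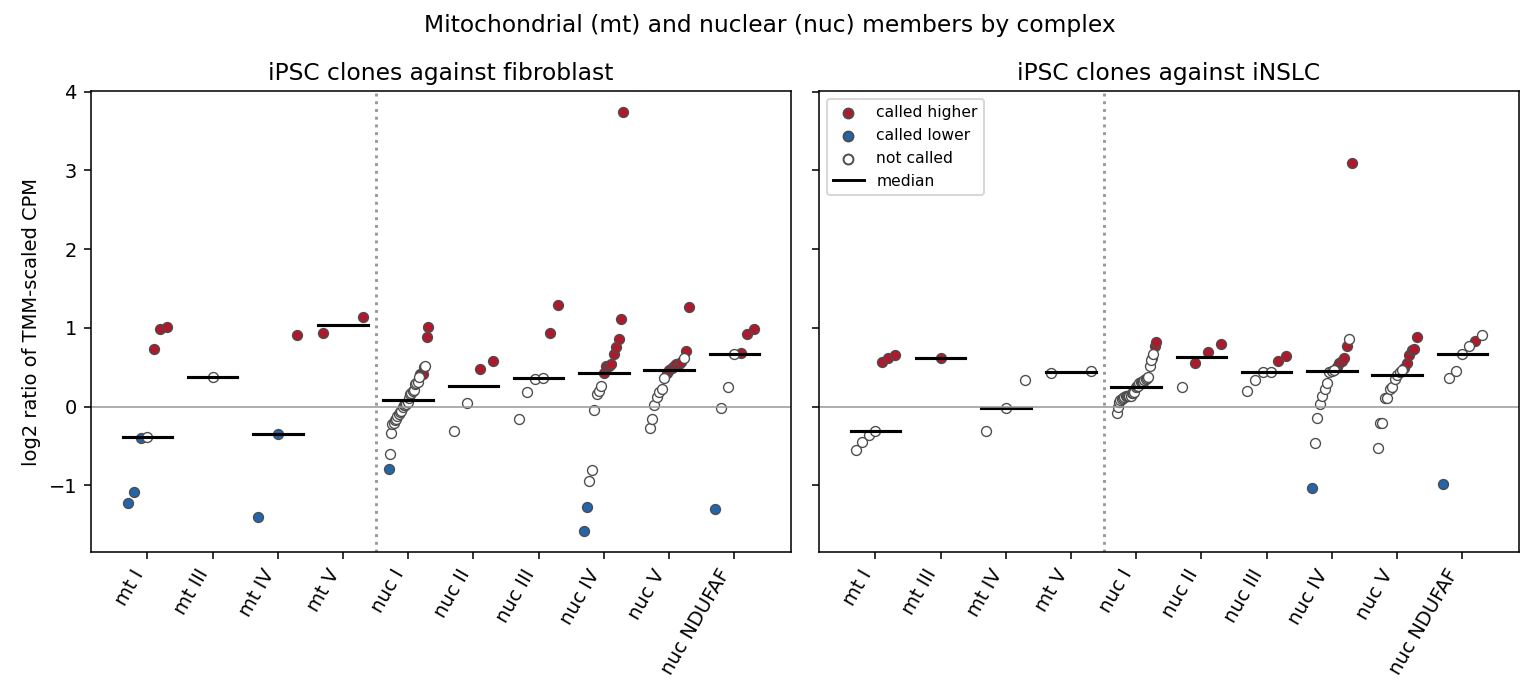
log2 ratio of TMM-scaled CPM for the mitochondrial and nuclear members of each complex and for the NDUFAF assembly factors, in iPSC clones against fibroblasts and against iNSLCs; each point is 1 gene, filled where called by edgeR, and black lines are medians. Against fibroblasts the mitochondrial genes of complexes I and IV split to both sides. In complex V both mitochondrial and 9 of 17 nuclear genes rose, beside 29.6% of all genes tested.

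Nuclear complex I members had the lowest median ratio of the nuclear groups. Of 32 tested, 6 rose and 1 fell, with a median log2 ratio of 0.09. That is 18.8% and 3.1%, both below the 29.6% and 27.5% of all genes. NDUFAB1, the mitochondrial acyl carrier protein, rose most, from 40.6 CPM in fibroblasts and 46.5 CPM in iNSLCs to 85.0 and 79.2 CPM in the clones (2.02-fold, edgeR adjusted p = 0.0032). NDUFA1, a small membrane subunit encoded on the X chromosome (98219988 to 98223869), rose 1.85-fold. NDUFB9 fell by 0.80 on the log2 scale, from 49.6 CPM to 27.6 and 29.5 CPM, and was at 25.9 CPM in iNSLCs. Its row shares 38.6% of its exon bases with genes on the opposite strand, and its call was lost with total-count scaling (log2 -0.23).

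A pair of subunits with redox centres of complex I did not pass the test against fibroblasts. NDUFS1, the largest iron-sulfur subunit, was at 123 CPM in fibroblasts, 97.0 CPM in iNSLCs, and 149 and 150 CPM in the clones (edgeR adjusted p = 0.096), and it was called higher with total-count scaling (0.0034). NDUFV1, which binds NADH and flavin, was at 33.0, 26, 28.8 and 28.5 CPM, and it shares 46.0% of its exon bases with an opposite-strand row. Under total-count scaling 25 nuclear complex I members rose and none fell, beside 44.9% and 16.8% of all genes.

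Complex II, which oxidises succinate and has no mitochondrial gene, was split between its subunits. SDHB, the iron-sulfur subunit, rose 1.5-fold to 91.9 and 87.6 CPM, from 60 CPM (edgeR adjusted p = 0.014). SDHD, a membrane anchor, rose 1.40-fold, from 80.6 CPM to 111 and 115 CPM, but DESeq2 did not call it (adjusted p = 0.066). SDHA, the flavoprotein, was at 158 CPM in fibroblasts and 158 and 169 CPM in the clones (log2 0.05, SE 0.12). SDHC, the other anchor, was at 127 CPM in fibroblasts and 98.3 and 107 CPM in the clones, which did not pass (edgeR adjusted p = 0.097). On the TMM scale iNSLCs were lowest for all 4 subunits, at 100, 51.6, 86.7 and 76.8 CPM for SDHA to SDHD. With total counts they were lowest for SDHA alone and lay between fibroblasts and the clones for the other subunits, and SDHA was called higher in iPSCs than in fibroblasts (edgeR adjusted p = 0.012).

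In complex III, 2 of 6 tested nuclear members rose and none fell. The 33.3% that rose is near the 29.6% of all genes, of which 27.5% fell. UQCRFS1, the Rieske iron-sulfur protein (chromosome 6, 39363375 to 39373873), rose from 127 CPM in fibroblasts to 303 and 316 CPM in the clones (2.44-fold, log2 SE 0.13, edgeR adjusted p = 0.0015). iNSLCs lay between, at 207 CPM. UQCRQ, a small subunit, rose 1.92-fold, and 40.7% of its exon bases lie in GDF9 on the opposite strand. CYC1, which encodes cytochrome c1, had no counts in any library.

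Complex IV held both the largest rise and the largest fall. Of 17 nuclear members tested, 9 rose and 2 fell, with a median log2 ratio of 0.43. That is 52.9% and 11.8%, beside 29.6% and 27.5% of all genes. COX6B2, the testis paralogue of COX6B1, had 29 counts in fibroblasts and 28 in iNSLCs, or 0.626 and 0.977 CPM. In the clones it reached 7.01 and 9.68 CPM (chromosome 6, 59530400 to 59531961; 13.3-fold over fibroblasts, log2 SE 0.45, edgeR adjusted p = 0.0027). COX6B1 rose 1.81-fold and stayed the more abundant, with 124 counts for each COX6B2 count in fibroblasts, 93.8 in iNSLCs, and 19.4 and 14.9 in the clones. Germ cell markers summed to 0.633 and 0.306 CPM in the clones, with TNP1 and PRM1 at 0 in both.

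COX7A2L, a paralogue that joins complexes III and IV, fell (ENSSSCG00000008466, chromosome 3, 97951110 to 97984009). It was at 253 CPM in fibroblasts, 93.1 CPM in iNSLCs, and 83.0 and 85.3 CPM in the clones (log2 -1.59, SE 0.11, edgeR adjusted p = 0.000637). Its relative COX7A2, the common subunit of the enzyme, rose 2.17-fold, from 53.6 CPM to 113 and 119 CPM, with 79.2 CPM in iNSLCs. There were thus 4.71 COX7A2L counts for each COX7A2 count in fibroblasts, 1.17 in iNSLCs, and 0.733 and 0.715 in the clones. Both calls were also made with total-count scaling and with DESeq2.

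The muscle paralogues were low or fell. COX6A2, the heart and skeletal muscle form, fell from 28.2 CPM in fibroblasts to 11.2 and 12.1 CPM (edgeR adjusted p = 0.0039), with 23.9 CPM in iNSLCs. COX6A1, the common form, rose 1.34-fold but was not called by DESeq2 (adjusted p = 0.10). COX6A1 counts were 3.39 times those of COX6A2 in fibroblasts, 3.81 times in iNSLCs, and 11.3 and 10.7 times in the clones. The COX6A1 row shares 44.2% of its exon bases with TRIAP1 and GATC, and the COX6A2 row 5.18% with ITGAM. Muscle markers summed to 0.777 CPM in fibroblasts, 1.33 CPM in iNSLCs, and 4.69 and 11.3 CPM in the clones, with MYH7 at 0 throughout. COX7A1, also a muscle form, was at 4.30, 1.81, 2.41 and 2.51 CPM and did not pass the test (edgeR adjusted p = 0.12). Its row shares 24.8% of its exon bases with CAPNS1.

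Paralogues linked to low oxygen were weak in all libraries. COX4I2, the hypoxia and lung form of COX4I1, lay at 0.885, 0.558, 0.845 and 1.18 CPM. COX4I1 lay at 136, 109, 164 and 161 CPM, or 154, 194, 195 and 136 counts for each COX4I2 count, with no ordered difference. NDUFA4L2, a hypoxia-induced relative of NDUFA4, lay at 5.70, 4.08, 2.79 and 3.13 CPM (edgeR adjusted p = 0.059 against fibroblasts). NDUFA4, now counted as a complex IV subunit, rose 1.45-fold. Of the remaining subunits, COX8A rose 1.43-fold (not called by DESeq2, adjusted p = 0.077), COX5A 1.59-fold and the X-linked COX7B 1.70-fold, while the X-linked NDUFB11 of complex I was at 36.0, 36.7, 37.4 and 40.5 CPM.

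**Figure D5:**
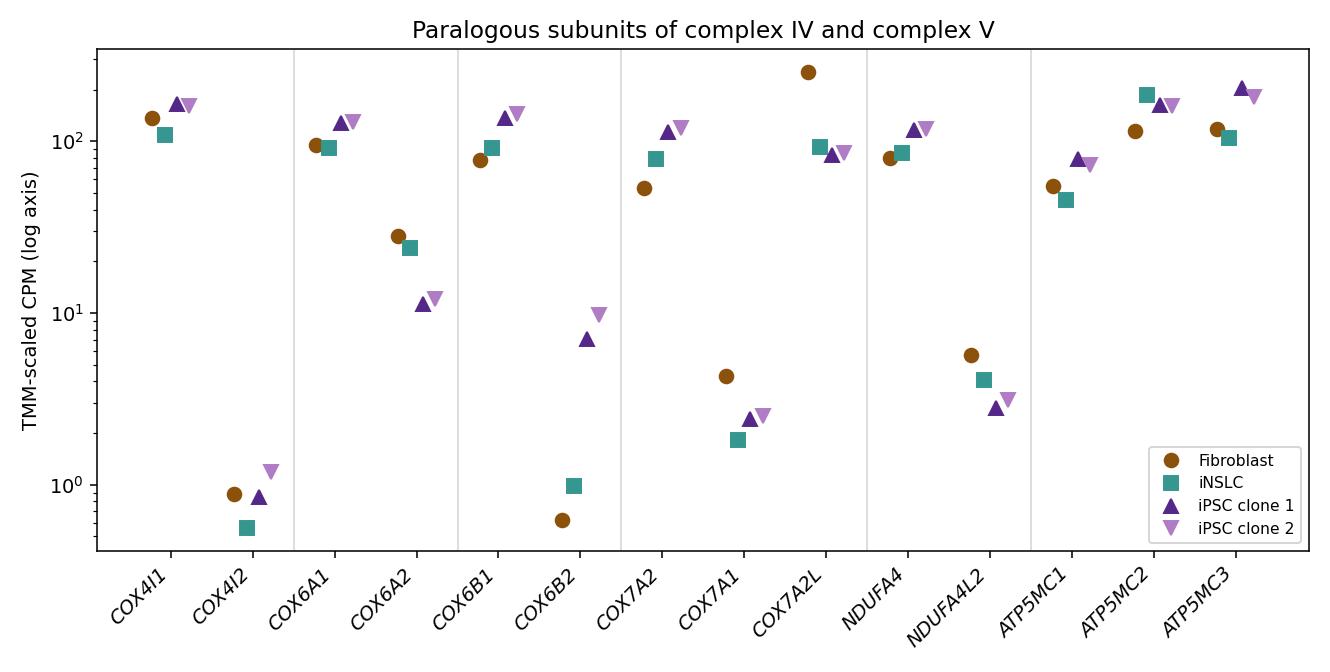
TMM-scaled CPM (log axis) of paralogous subunits of complexes IV and V; each point is 1 library and vertical lines part the families. COX6B2 is higher and COX6A2 lower in both clones than in the other libraries, and COX7A2L is highest in fibroblasts at 253 CPM.

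Nuclear complex V members had the highest median ratio among the nuclear subunits. Of 17 nuclear members, 9 rose and none fell, with a median log2 ratio of 0.47. The 52.9% that rose stands beside 29.6% of all genes, of which 27.5% fell. ATP5F1A and ATP5F1B, the subunits of the catalytic head, were the most abundant nuclear members by counts and together held 20.9% of the nuclear counts in fibroblasts, 23.9% in iNSLCs, and 24.3% and 24.7% in the clones. ATP5F1A rose from 691 CPM in fibroblasts to 1004 and 1044 CPM (1.48-fold, edgeR adjusted p = 0.014), with 696 CPM in iNSLCs. ATP5F1B rose 1.43-fold. ATP5MK, a small membrane subunit, rose 2.40-fold, from 15.7 CPM to 37.5 and 37.8 CPM.

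ATP5MC1, ATP5MC2 and ATP5MC3 encode the same mature c subunit of the rotor and differ in the targeting peptide. ATP5MC3 rose 1.64-fold, ATP5MC2 1.41-fold and ATP5MC1 1.38-fold against fibroblasts, and DESeq2 did not call ATP5MC1 (adjusted p = 0.11). The ATP5MC3 row shares 33.5% of its exon bases with ATF2. In iNSLCs ATP5MC2 was the highest of the 4 libraries, at 186 CPM against 115 CPM in fibroblasts and 162 and 162 CPM in the clones. ATP5MC2 counts were 4.10 times ATP5MC1 counts in iNSLCs, and 2.10, 2.05 and 2.23 times in fibroblasts and the clones. ATP5IF1, the inhibitor that binds the enzyme when the membrane loses its potential, was at 61.7, 37.6, 49.4 and 52.8 CPM and did not pass.

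The nuclear members with the highest mean level per kilobase were ATP5F1A (275 CPM per kilobase), ATP5PO (199), COX4I1 (186), COX7A2 (168) and ATP5F1B (167). The lowest with any counts were NDUFA4L2 (0.630), COX7A1 (1.19), COX4I2 (1.32), ATP5MG (3.19) and COX6B2 (4.22). ATP5MG is a common subunit of the enzyme, and its row, named here by position, held only 187 to 387 counts per library.

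Assembly factors of complex I did not move together. NDUFAF4, NDUFAF2 and NDUFAF6 rose 1.98-, 1.90- and 1.61-fold, but DESeq2 called NDUFAF4 alone among them. NDUFAF1, which binds early membrane intermediates, fell (chromosome 1, 129967437 to 129992246). It was at 32.2 CPM in fibroblasts, 25.8 CPM in iNSLCs, and 12.5 and 13.7 CPM in the clones (log2 -1.3, SE 0.17, edgeR adjusted p = 0.0035).

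Against iNSLCs, where scaling matters little, the medians of the genomes were close, but a larger part of the mitochondrial genes lay below iNSLCs. Here 28.1% of all tested genes were called, 14.1% higher and 14.1% lower. Of 83 nuclear members, 21 rose and 2 fell (25.3% and 2.41%), and of 13 mitochondrial genes 4 rose and none fell. The median log2 ratio was 0.34 for nuclear members and 0.33 for mitochondrial genes, beside 0.00 over all genes. The SD was 0.47 for each genome, while the lower quartile was 0.14 for nuclear members and -0.32 for mitochondrial genes. Both clones lay above iNSLCs in 74 nuclear members and below in 7, but above in 7 and below in 6 of the mitochondrial genes. The places of single clones were not counted over all genes. The ratio of the clone mean to iNSLCs was above 1 in 7857 and below 1 in 7865 of 15722 tested genes with a ratio. It was above 1 in 74 and below 1 in 9 nuclear members, and above 1 in 7 and below 1 in 6 mitochondrial genes. The comparison shares its iPSC libraries with that against fibroblasts, so its values are set side by side and not counted as a repeat.

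The mitochondrial genes that rose were ND1 (1.57-fold), CYTB (1.54-fold), ND2 (1.53-fold) and ND3 (1.49-fold). COX1 had a log2 ratio of -0.32 (SE 0.098, edgeR adjusted p = 0.075) and ND5 one of -0.55 (SE 0.16, edgeR adjusted p = 0.062), and DESeq2 called ND5 lower (adjusted p = 0.032). By edgeR no mitochondrial gene was called lower, although 4 had a lower ratio at an unadjusted p below 0.05, and none of the 5 mitochondrial genes of complexes IV and V was called in either direction.

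Among nuclear members, COX6B2 rose 8.54-fold over iNSLCs (edgeR adjusted p = 0.012). ATP5MC3 rose 1.85-fold, NDUFAF4 1.78-fold, NDUFAB1 1.77-fold, SDHB 1.74-fold, NDUFA11 1.71-fold, COX5A 1.70-fold and ATP5MC1 1.67-fold. DESeq2 did not call NDUFAF4 (adjusted p = 0.086) or NDUFA11 (adjusted p = 0.0503). Complex II passed in 3 of 4 subunits, since SDHA rose 1.62-fold and SDHD 1.47-fold besides SDHB. COX6A2 fell by 1.04 and NDUFAF1 by 0.98 on the log2 scale, both of which also fell against fibroblasts. COX7A2L, at 93.1 CPM in iNSLCs, had a log2 ratio of -0.15 there and did not pass.

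iNSLCs and fibroblasts were compared by ratio alone, with 1 library each. At least 2-fold differences were found in 29.2% (higher) and 19.8% (lower) of all tested genes, in 1 and 2 of the 83 nuclear members, and in none and 1 of the mitochondrial genes. ATP5MG was higher in iNSLCs (2.21-fold, 95% interval 1.87 to 2.62 for counting error). COX7A2L was at 0.368 of its fibroblast level (0.353 to 0.384), COX7A1 at 0.422 (0.305 to 0.576) and COX1 at 0.470 (0.468 to 0.472). The median log2 ratio was -0.12 for nuclear and -0.03 for mitochondrial members on the TMM scale, and 0.46 and 0.55 with total counts, so neither has a direction that holds under both.

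The place of iNSLCs among the libraries depended on scaling. On the TMM scale iNSLCs lay between fibroblasts and both clones in 12 of 13 mitochondrial genes (CYTB was lowest in iNSLCs), and in 31 of the 83 nuclear members, with 47 lowest and 3 highest in iNSLCs. With total counts they lay between in 10 mitochondrial genes and 68 nuclear members. ND4, ND4L and COX3 were then highest in iNSLCs, and 7 nuclear members were lowest and 6 highest there. Such places were not counted over all genes, so they are not read as particular to the members. On the TMM scale, below fibroblasts by the most after COX7A2L and COX7A1 were NDUFB9, NDUFB1, ATP5IF1, COX4I2, NDUFB2 and SDHA, at 0.522 to 0.637 of the fibroblast level. UQCRFS1, ATP5MC2, COX6B2, NDUFA1, COX7A2, ATP5MK and COX7B were 1.45 to 1.63 times that level, and the counting intervals of COX6B2 (0.895 to 2.72) and COX4I2 (0.330 to 1.15) included no difference.

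The 6 nuclear members with no counts were NDUFA2, NDUFA3, NDUFB7, CYC1, COX8H and NDUFAF3. Each row shares at least 90.5% of its exon bases with rows on the opposite strand, such as TMCO6 for NDUFA2, TFPT for NDUFA3 and SHARPIN for CYC1. No nuclear member with counts shares more than 46.0%. NDUFA2, NDUFA3, NDUFB7 and CYC1 are common subunits of working complexes, so their absence from the counts is not read as absence of expression. NDUFA13, NDUFS7 and UQCRB were not found under their names and were not analysed here.

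Other genes of the same organelle were read from the same fit. Over all tested genes 29.6% rose and 27.5% fell against fibroblasts, and 14.1% rose and 14.1% fell against iNSLCs. Calls in the lists below are to be set beside these shares, and those near them are not read as a result about a list. Where none fell in these lists against iNSLCs, DESeq2 called none lower either, and none had a lower ratio at an unadjusted p below 0.05. Of 70 genes of the mitochondrial ribosome, which translates the 13 mitochondrial messengers, 18 rose and 9 fell against fibroblasts (median log2 ratio 0.10), and 21 rose and none fell against iNSLCs (0.43). MRPS17 rose 2.67-fold and MRPS18B fell by 1.65 on the log2 scale against fibroblasts, while MRPL24, below 2 CPM in every library, had a ratio of -1.79 and did not pass (edgeR adjusted p = 0.053). Against iNSLCs, MRPL42, MRPL33 and MRPS17 rose 2.11-, 1.91- and 1.84-fold. With total-count scaling 44 rose and 2 fell against fibroblasts, beside 44.9% and 16.8% of all genes.

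Of 20 genes that copy and transcribe mitochondrial DNA, 6 rose and 2 fell against fibroblasts, and 3 rose and none fell against iNSLCs. The share that rose was near that of all genes in both comparisons. DNA2, MGME1 and TWNK, a nuclease-helicase, a nuclease and the replicative helicase, rose 4.98-, 4.17- and 3.16-fold. TWNK was at 21.5 CPM in fibroblasts, 48.1 CPM in iNSLCs, and 68.6 and 67.2 CPM in the clones. TOP1MT, the mitochondrial topoisomerase, was at 16.0, 1.54, 7.81 and 7.98 CPM and rose 5.14-fold over iNSLCs. TFB2M, a transcription factor of the organelle, was 1.79-fold higher and RRM2B 1.65-fold higher than in iNSLCs, and neither passed.

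Of 15 tested genes that process or degrade mitochondrial RNA, 4 rose and 2 fell against fibroblasts, and 1 rose and 1 fell against iNSLCs. REXO2, a nuclease that clears short RNA, was at 306 CPM in fibroblasts, 25.4 CPM in iNSLCs, and 85.1 and 47.6 CPM in the clones, and it fell by 2.21 on the log2 scale against fibroblasts. GRSF1, an RNA granule protein, fell in both comparisons, by 0.77 and 1.28. TRMT10C, a subunit of mitochondrial RNase P that frees the transfer RNAs, rose 1.76-fold against fibroblasts. Over iNSLCs, REXO2 had a 2.61-fold ratio (edgeR adjusted p = 0.058) with the clones well apart, and TACO1, which aids translation of COX1, a 1.49-fold ratio (0.10), so neither passed.

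Of 16 regulators of mitochondrial biogenesis, 6 rose and 6 fell against fibroblasts, and 4 rose and 2 fell against iNSLCs. PPARGC1A, a coactivator of respiratory genes, was counted 4 times in fibroblasts, with 3.07 CPM in iNSLCs and 2.41 and 1.97 CPM in the clones. ESRRB and ESRRG, orphan nuclear receptors, had no fibroblast counts. ESRRB lay at 30.0 CPM in iNSLCs and 9.75 and 4.07 CPM in the clones, and ESRRG at 1.99, 1.90 and 3.41 CPM. PPARA, a fatty acid receptor, fell by 2.94 on the log2 scale against iNSLCs, from 2.37 CPM to 0.380 and 0.240 CPM.

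Among 32 tested assembly factors of other kinds, 4 rose and 4 fell against fibroblasts, and 2 rose and none fell against iNSLCs. COX17, a copper chaperone for complex IV, rose 2.78-fold, from 22.2 CPM in fibroblasts and 23.3 CPM in iNSLCs to 66.6 and 57.0 CPM. COA7 rose 2.13-fold and COX11, another copper chaperone, fell by 1.04 on the log2 scale. Over iNSLCs, COX17 rose 2.65-fold and ECSIT, a complex I assembly factor, 1.70-fold, while SCO2, with 3 to 15 counts per library, did not pass. Of 10 tested carriers and other electron donors, 5 rose and 2 fell against fibroblasts, and 6 rose and 1 fell against iNSLCs. SQOR, which passes electrons from sulfide to ubiquinone, was at 257 CPM in fibroblasts, 9.84 CPM in iNSLCs, and 2.36 and 2.62 CPM in the clones. UCP2, an inner membrane carrier, rose 12.4-fold, from 6.76 CPM in fibroblasts and 18.7 CPM in iNSLCs to 80.5 and 87.5 CPM, and SLC25A4, an ADP/ATP carrier, rose 2.61-fold.

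Of 17 citric acid cycle genes, 3 rose and 5 fell against fibroblasts, and 5 rose and none fell against iNSLCs. OGDH and SUCLG2 fell by 0.79 and 0.71 on the log2 scale against fibroblasts, and DLAT rose 1.61-fold. IDH3A, SUCLA2 and SUCLG2 rose 2.39-, 1.83- and 1.58-fold over iNSLCs. Of 18 import and envelope genes, 6 rose and 1 fell against fibroblasts, and 7 rose and none fell against iNSLCs. TOMM20, an outer membrane import receptor, rose 2.05-fold and HSPA9, the matrix chaperone of import, fell by 0.56 on the log2 scale against fibroblasts, whereas HSPA9 rose 1.81-fold over iNSLCs. CLPP, a matrix protease, rose 1.8-fold against fibroblasts. VDAC2, an outer membrane channel, and TIMM17A, part of the inner membrane translocase, rose 1.85- and 1.78-fold over iNSLCs. For these lists the falls against fibroblasts depended on scaling, since with total counts edgeR called none lower in the cycle, import or assembly lists, nor among the genes for mitochondrial DNA, where none had a lower ratio at an unadjusted p below 0.05. DESeq2 called 5, 1, 0 and 1 lower in these lists.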

How the data were processed

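Counts per gene in each library, and the same counts in a joint table, were deposited by the authors as whole numbers that were not normalized. The submitters' processing notes name Trim Galore 0.4.0 for trimming, STAR 2.5.3a for alignment to Sscrofa11.1 and featureCounts 1.5.2 for counting. Settings for strand, multi-mapping and annotation were not stated, and overlapping genes may therefore have lost or shared reads. Symbols came from Ensembl identifiers for 14857 of 25880 genes and from position for 1495, where 1 RefSeq protein-coding gene covered 80% or more of the shorter span and 10% or more of the joint span. For genes with both, 95.4% had the same symbol. Of the nuclear members, 17 were named by position.

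Counts were filtered with filterByExpr and scaled by TMM in R 4.3.3 with edgeR 4.0.16 and limma 3.58.1. The scaling factors were 0.742 (fibroblast), 1.11 (iNSLC), 1.09 and 1.11 (iPSC clones 1 and 2). The two-sided edgeR quasi-likelihood F test was fitted over 4 libraries in 3 groups, with Benjamini-Hochberg adjustment over 15739 genes. The single residual degree of freedom (1) came from the clones, so the lone libraries were assumed to vary as the clones did (common biological coefficient of variation 0.198). On simulated counts of 13247 genes, 22% of 2-fold and 99% of 4-fold changes were recovered for iPSCs against fibroblasts. For iPSCs against iNSLCs these were 31% and 100%. The simulation changed 100 genes by each fold and used that one coefficient of variation for every gene. In the data 57.1% of genes were called against fibroblasts, so the rates may differ from those here. Ratios are of scaled CPM, and SEs are those of the fit. Shares have 95% exact binomial intervals and single-library ratios exact conditional ones, both for counting error only. Depth was lowest in iPSC clone 1, where 3 counts, the limit that a count of 0 allows, correspond to 0.139 CPM before scaling.

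The members, the pathway and marker lists (written from textbook knowledge) and the tests were chosen with earlier results of these data known. The text names the mitochondrial genes, members with a paralogue, SDHA to SDHD, CYC1, the 8 nuclear members with the largest rise and the 8 with the largest fall per comparison (called where tested), the 5 highest and 5 lowest per kilobase, members on the X chromosome, and the 3 members of each pathway list with the largest absolute log2 ratio, given for the iPSC comparisons only. Of these, 1 gene is not reported here and COX8C was not found under its name. NDUFS1, NDUFV1, NDUFAF6 and the 6 members at 0 counts were added after their values were seen. Alternatives were RLE and total-count scaling, TMM without mitochondrial rows, no filter, DESeq2 1.42.0, fewer members and leaving out each clone. Python 3.11.15 with numpy 2.4.6, pandas 2.3.3, scipy 1.17.1 and matplotlib 3.10.9 was used for summaries and plots.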

Additional observations from a re-analysis of the deposited data

How the results depend on the processing

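Library scaling was the choice that mattered most. With total counts, 67 nuclear members rose against fibroblasts and 3 mitochondrial genes fell, and the median log2 ratios were 0.83 (nuclear) and 0.95 (mitochondrial) against fibroblasts, 0.33 (nuclear) against iNSLCs, and 0.46 and 0.55 for iNSLCs against fibroblasts, where the sign turned. ND4 (0.17) and COX3 (0.22) turned sign and were no longer called, and NDUFB5 (0.52), NDUFB8 (0.50), NDUFS8 (0.45), UQCRC2 (0.41), COX7C (0.53) and ATP5F1E (0.42) turned from below 0 to called higher. With DESeq2, 19 nuclear members rose against fibroblasts and 1 mitochondrial gene fell against iNSLCs. RLE scaling gave nuclear medians of 0.24 against fibroblasts and 0.36 against iNSLCs, and TMM without mitochondrial rows gave 0.35 against iNSLCs. With fewer members (no assembly factors, or no ATP8, ND4L and ND6) the medians were 0.24 (nuclear) and 0.56 (mitochondrial) against fibroblasts, 0.32 (nuclear) against iNSLCs and 0.011 (mitochondrial) for iNSLCs against fibroblasts. The cause of these moves was not tested beyond the construction of each alternative.

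The mitochondrial share of respiratory chain counts in fibroblasts, iNSLCs and iPSCs was 93.7%, 92.7% and 91.2% per kilobase, 83.4%, 82.5% and 79.6% without COX1, and 91.8%, 90.0% and 86.9% with members named by identifier only, and it was 89.9% and 86.9% in fibroblasts and iNSLCs without assembly factors. The order of the groups was the same in each. Leaving out either clone gave nuclear medians of 0.29 to 0.30 against fibroblasts and 0.35 to 0.35 against iNSLCs, and no calls, since no residual degree of freedom was left. No paired analysis by donor was possible because all libraries came from 1 animal. With 1 fibroblast, 1 iNSLC and 2 iPSC libraries of 1 animal, the spread within the lone groups was not measured. Most 2-fold changes were missed on simulated counts, but few genes were changed there, so that rate does not carry over to these data. Members that did not pass are not read as unchanged.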
